A study of Mus musculus with 9 samples.

Results

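The 10 genes described here are the Notch receptors Notch1, Notch2 and Notch3, the ligands Jag1, Jag2 and Dll1, and the Notch targets Hes1, Hey1, Heyl and Nrarp, measured in cultured mouse podocytes. They were taken by name, as 10 of the 22180 genes with a value, and for each the brightest probe set, by its mean over all 9 arrays, was taken among those that carry 1 gene symbol. All 10 were measured. RNA came from 3 groups of 3 single-colour arrays, listed by the labels as biological replicates. The first group received 2.5 µM thapsigargin together with 10 µM forskolin, the second 2.5 µM thapsigargin alone, and the control group DMSO, the vehicle. Treatment lasted 16 hours, after 11 days of differentiation at 37 °C in every group. Thapsigargin blocks the SERCA calcium pump of the endoplasmic reticulum and so causes stress in that compartment, while forskolin activates adenylyl cyclase and raises cAMP. No group with forskolin alone was analysed here, so an effect of forskolin is seen here only on top of thapsigargin. The labels do not say in what the replicates were separate, and the p-values measure only the spread between these arrays.

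Notch receptors are cut by furin on their way through the secretory pathway and sit on the cell surface, where Jagged and Delta ligands of a neighbouring cell bind them. Ligand pulling exposes the receptor to the protease ADAM10 and then to gamma-secretase, which frees the intracellular domain. That domain enters the nucleus, joins the DNA-binding protein RBPJ and a Mastermind coactivator, and switches on genes such as the HES and HEY repressors and Nrarp, a feedback inhibitor. Notch activity is needed when the glomerulus forms, is low in mature podocytes, and its return in podocytes is associated with glomerular disease. Transcript levels do not measure cleavage or activity of the receptors.

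The deposited values are log2 values, on which a difference of 1 is a doubling, and levels of different genes are not set against each other. Arrays within a group correlated at Pearson r between 0.989 and 0.993 over all probe sets, and the array medians lay between 5.80 and 5.88. Of 8 podocyte markers listed 6 were measured, and their levels were uneven. The slit diaphragm gene Nphs1 had group means between 6.38 and 6.55 and Wt1 between 6.45 and 6.80, Ptpro lay below the array medians at 5.23 to 5.35, and the adaptor gene Cd2ap was at 11.3 to 11.6. Synpo, an actin-binding podocyte protein, averaged 7.23 with the combined treatment, 6.67 with thapsigargin and 9.20 in DMSO, and Podxl 7.0, 7.79 and 8.46. The markers of other cells were uneven too. Among mesangial and pericyte markers, Acta2 had group means from 11.3 to 13.3 and Pdgfrb from 9.13 to 10.4, but Rgs5 from 4.77 to 4.92. Among tubular markers, Aqp1 ranged from 8.31 to 11.7 and Cdh16 from 7.79 to 11.2, but Slc12a1 from 4.42 to 4.51. Endothelial Emcn (3.87 to 3.93) and leukocyte Ptprc (3.72 to 3.80) had group means below the lower quartile of every array, which was at least 4.53, but endothelial Ehd3 was at 9.05 to 10.4, and leukocyte Csf1r at 6.80 to 7.98 and Cd68 at 7.93 to 7.98.

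The mean log2 value over 8 tubular markers lay between 6.52 and 6.62 on the combined arrays, 6.43 and 6.52 on the thapsigargin arrays and 7.57 and 7.63 on the DMSO arrays, and over 8 mesangial and pericyte markers between 7.61 and 7.74, 7.43 and 7.49, and 7.83 and 7.89 in the same order of groups. Over 6 podocyte markers it lay between 7.28 and 7.29, 7.34 and 7.37, and 7.93 and 7.97, over 8 endothelial markers between 5.83 and 5.86, 5.82 and 5.90, and 6.01 and 6.10, and over 7 leukocyte markers between 5.54 and 5.59, 5.39 and 5.48, and 5.65 and 5.79. These means were lower on the treated than on the DMSO arrays, and the sizes of the falls were uneven among genes. With thapsigargin the difference was negative for 8 of 8 tubular, 7 of 8 mesangial and pericyte and 5 of 6 podocyte markers. It was negative for 5 of 8 endothelial and 7 of 7 leukocyte markers, and for 12843 of all 22180 genes. With thapsigargin against DMSO, limma called 4 of 8 tubular markers lower, 3 of 8 mesangial and pericyte, 2 of 8 endothelial and 1 of 7 leukocyte markers, with none of these higher, and 3 of 6 podocyte markers lower and 1 higher, Cd2ap. Of all genes 16.9% were called lower and 18.2% higher in this comparison. The tubular genes Cdh16 and Aqp1 were 10.3-fold and 9.47-fold lower. With the combined treatment against DMSO the counts were 4, 2, 1, 1 and 3 lower in the same order of lists, and 1 marker was higher, the pericyte gene Mcam, by 3.60-fold. There 16.7% of all genes were called lower and 17.9% higher. The part of these markers in the results below was not tested. In RNA of whole cultures, fewer cells of a type and less RNA per cell cannot be told apart.

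The comparison of thapsigargin with DMSO addresses the response to the stressor, and that of the combined treatment with thapsigargin what forskolin adds to it. Thapsigargin lowered the target Hes1, the receptor Notch2 and the 3 ligands, and raised none of the 10 genes. In limma with Benjamini-Hochberg adjustment over all genes, 5 of 10 were called lower and 0 higher, where 35.0% of the 22180 genes were called, 16.9% lower and 18.2% higher. The median log2 difference was -0.20 over the 10 genes and -0.04 over all genes. Thapsigargin and DMSO arrays were fully separate for those 5 genes, against 43.9% of all genes.

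Forskolin added to thapsigargin raised Hes1, Jag1 and Notch2 relative to thapsigargin alone. Here 3 of 10 genes were called higher and 0 lower, where 7.87% of all genes were called, 3.70% higher and 4.17% lower. The median difference was 0.05 over the 10 genes and -0.01 over all genes. Arrays of the groups were fully separate for 5 of the 10, against 26.1% of all genes. The combined treatment against DMSO gave 5 calls among the 10, 4 lower (Hes1, Notch2, Jag2 and Dll1) and 1 higher (Jag1), where 34.5% of all genes were called, 16.7% lower and 17.9% higher; groups did not overlap for 5, against 42.6% of all genes. The 3 comparisons share arrays, so their values are given side by side and not as separate evidence.

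**Figure D1:**
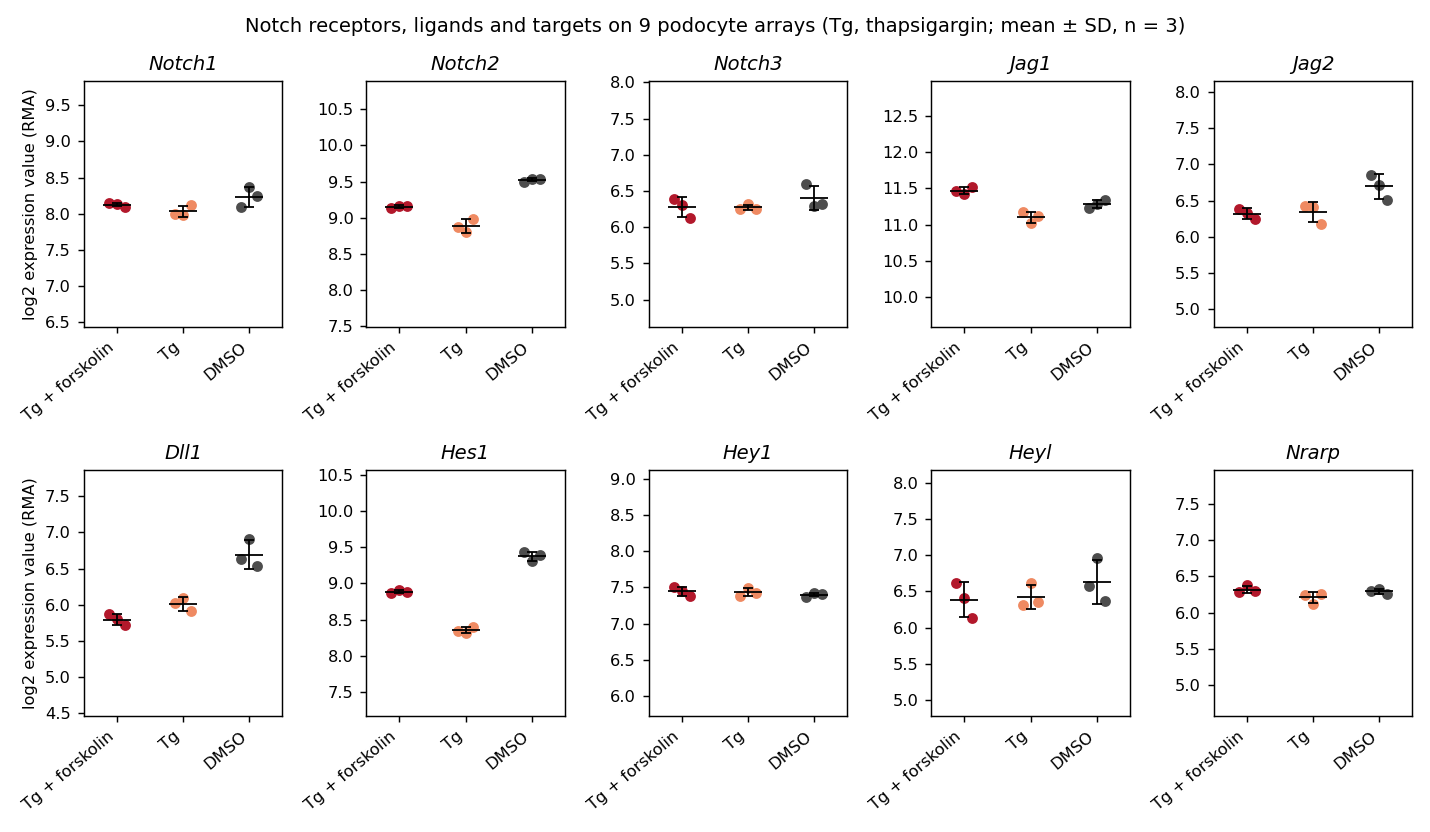
Log2 expression value (vertical axis, each panel spanning an equal range) of the 10 Notch genes on each array, by treatment (horizontal axis: Tg + forskolin, thapsigargin with forskolin; Tg, thapsigargin; DMSO); points are arrays, bars the mean and SD of 3. Hes1 and Notch2 have the combined group between the other groups without overlap, Dll1 is high on the DMSO arrays, Jag1 is highest on the combined arrays, and Hey1 and Nrarp are nearly level.

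Hes1, a repressor that is the best known direct target of Notch, had the widest difference of the 10 genes between thapsigargin and DMSO. Its log2 values were 8.87, 8.90 and 8.89 on the combined arrays, 8.35, 8.32 and 8.40 on the thapsigargin arrays and 9.43, 9.30 and 9.39 on the DMSO arrays. The groups were fully separate, with the combined arrays in the middle. Relative to DMSO, thapsigargin lowered Hes1 2.03-fold (log2 difference -1.02 ± 0.05, SE, 3 arrays per group; limma adjusted p = 4.08e-07). With forskolin added, Hes1 was 1.45-fold higher than with thapsigargin alone (0.53 ± 0.05, limma adjusted p = 0.00031), and it stayed 1.40-fold lower than in DMSO (-0.49 ± 0.05, limma adjusted p = 6.19e-05). Each of the 3 calls held in all 14 alternative settings, over which the thapsigargin difference ranged from -1.09 to -0.98 and the difference added by forskolin from 0.50 to 0.55.

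The other 3 targets were not called in any comparison. Hey1, a related repressor, had 7.50, 7.45 and 7.38 on the combined arrays, 7.39, 7.50 and 7.42 on the thapsigargin arrays and 7.37, 7.42 and 7.41 on the DMSO arrays, which overlap throughout. Its thapsigargin difference of 0.03 had a 95% interval from -0.09 to 0.16, which does not reach the size of the Hes1 change, and the difference with forskolin added was 0.01, with an interval from -0.11 to 0.14. Heyl, of the same repressor family, spread more, with 6.61, 6.42 and 6.13 on the combined arrays, 6.32, 6.62 and 6.35 on the thapsigargin arrays and 6.57, 6.96 and 6.36 on the DMSO arrays. Its thapsigargin difference was -0.20, with a 95% interval from -0.58 to 0.17 (limma adjusted p = 0.406), and that with forskolin added was -0.04, with an interval from -0.42 to 0.34. Nrarp, which binds the intracellular domain and promotes its loss, had 6.28, 6.38 and 6.30 on the combined arrays, 6.25, 6.12 and 6.26 on the thapsigargin arrays and 6.30, 6.32 and 6.26 on the DMSO arrays. Its combined and thapsigargin arrays did not overlap, yet the difference of 0.11 was not called (limma adjusted p = 0.367, 95% interval -0.02 to 0.24). The lowest values of Heyl and Nrarp, 6.13 and 6.12, were not far above the array medians, where background was not checked.

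Among the receptors Notch2 was called in each comparison. Its values were 9.14, 9.16 and 9.17 on the combined arrays, 8.87, 8.81 and 8.99 on the thapsigargin arrays and 9.50, 9.54 and 9.54 on the DMSO arrays. As for Hes1, the combined arrays lay between the other groups and no groups overlapped. Thapsigargin lowered Notch2 1.56-fold relative to DMSO (-0.64 ± 0.06, limma adjusted p = 1.58e-05), and the combined treatment lowered it 1.29-fold (-0.37 ± 0.06, limma adjusted p = 0.000678). The rise with forskolin added was smaller, 1.20-fold (0.27 ± 0.06, limma adjusted p = 0.0213). That last call was lost without thapsigargin replicate 1 (limma adjusted p = 0.0835) or 2 (0.0805), without combined replicate 1 (0.0544), 2 (0.0768) or 3 (0.0734), and after centring on the array medians (0.0619), with differences from 0.23 to 0.32 and adjusted p from 0.00352 to 0.0835 over all 14 alternatives.

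Notch1 and Notch3 were not called in any comparison. Notch1 had 8.14, 8.14 and 8.10 on the combined arrays, 8.0, 7.98 and 8.12 on the thapsigargin arrays and 8.10, 8.37 and 8.24 on the DMSO arrays. The thapsigargin and DMSO arrays overlapped, and the difference of -0.20 ± 0.08 missed the threshold (limma adjusted p = 0.0696, 95% interval -0.37 to -0.03). It passed in 5 of 14 alternatives, among them the fit without DMSO replicate 1 (limma adjusted p = 0.0131), with adjusted p from 0.0119 to 0.215 over the 14. With forskolin added Notch1 differed by 0.09 (limma adjusted p = 0.616, 95% interval -0.08 to 0.26). Notch3, the receptor typical of mural cells, had 6.39, 6.31 and 6.13 on the combined arrays, 6.26, 6.32 and 6.25 on the thapsigargin arrays and 6.59, 6.30 and 6.32 on the DMSO arrays, with all groups overlapping. Its thapsigargin difference was -0.13, with a 95% interval from -0.34 to 0.08 (limma adjusted p = 0.341), and that with forskolin added had an interval from -0.21 to 0.21. The lowest Notch3 value, 6.13, was not far above the array medians, where background was not checked.

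**Figure D2:**
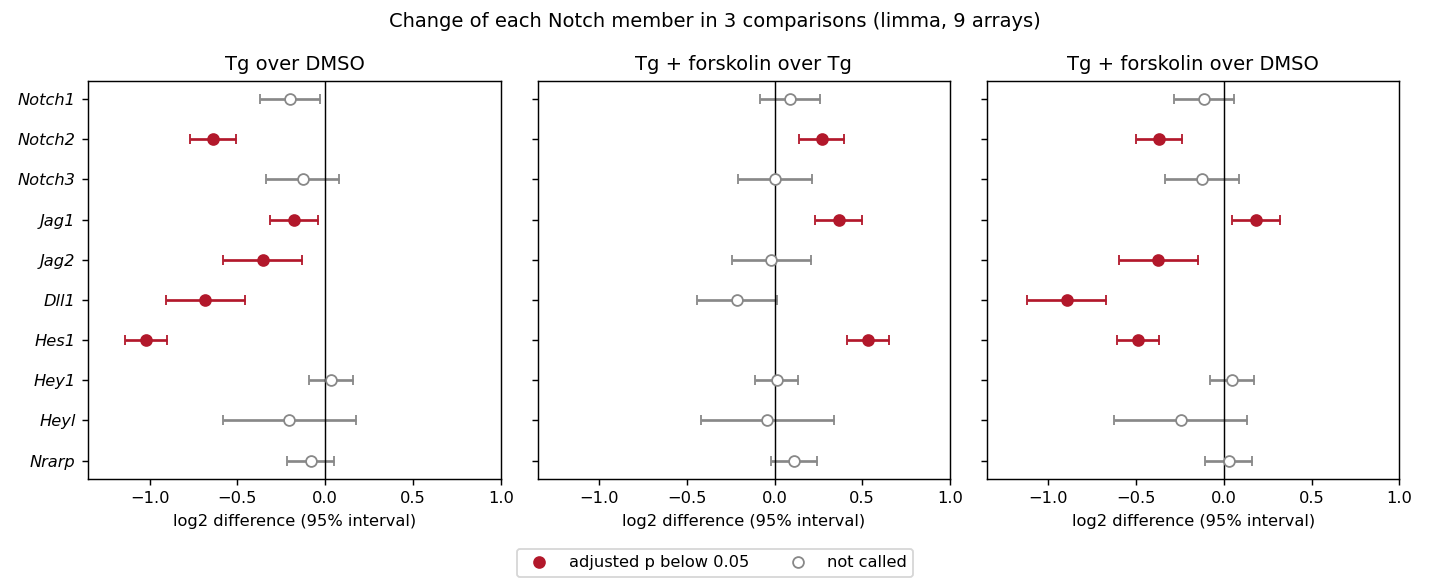
Log2 difference (horizontal axis) of each Notch gene in 3 comparisons, thapsigargin (Tg) over DMSO, thapsigargin with forskolin over thapsigargin, and thapsigargin with forskolin over DMSO; points are limma estimates, bars 95% intervals, filled points genes with adjusted p below 0.05. Hes1 lies at -1.02, 0.53 and -0.49 in the 3 panels, and Jag1 is the only gene called lower in the left panel and higher in the right panel.

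Jag1 was the ligand called in each comparison. Jag1, the ligand most studied in kidney disease, had 11.46, 11.42 and 11.52 on the combined arrays, 11.17, 11.02 and 11.12 on the thapsigargin arrays and 11.23, 11.28 and 11.34 on the DMSO arrays. The combined arrays were above all others, and the thapsigargin arrays lay just below the DMSO arrays. With forskolin added, Jag1 rose 1.29-fold over thapsigargin alone (0.36 ± 0.06, limma adjusted p = 0.00553), a call that held in all 14 alternatives. The differences from DMSO were small, -0.18 ± 0.06 for thapsigargin (limma adjusted p = 0.0444) and 0.18 ± 0.06 for the combined treatment (limma adjusted p = 0.0401). The first call was lost without DMSO replicate 2 (limma adjusted p = 0.0942) or 3 (0.119) and without thapsigargin replicate 2 (0.149) or 3 (0.0823), in the fit of 6 arrays (0.0739) and after centring (0.151), with adjusted p from 0.00553 to 0.151 over the 14 alternatives. The second was lost without DMSO replicate 1 (limma adjusted p = 0.104) or 2 (0.0898) and without combined replicate 1 (0.0778), 2 (0.0549) or 3 (0.13), in the fit of 6 arrays (0.0568), with array weights (0.0522), after centring (0.0556) and after quantile normalization once more (0.159), with adjusted p from 0.00498 to 0.159 over the 14.

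Dll1, a Delta-type ligand, had the widest change among the ligands. Its values were 5.87, 5.80 and 5.71 on the combined arrays, 6.02, 6.10 and 5.91 on the thapsigargin arrays and 6.63, 6.91 and 6.53 on the DMSO arrays. DMSO arrays were well above the others, and the treated values were close to the median of their arrays, where background was not checked. Thapsigargin lowered Dll1 1.60-fold (-0.68 ± 0.10, limma adjusted p = 0.000415), and the combined treatment lowered it 1.86-fold relative to DMSO (-0.90 ± 0.10, limma adjusted p = 7.29e-05). Dll1 is the 1 gene of the 10 with a second probe set, which gave -0.70 ± 0.10 for thapsigargin against DMSO (limma adjusted p = 0.000431) and -0.58 ± 0.10 for the combined treatment (limma adjusted p = 0.00156). Between the combined treatment and thapsigargin alone the probe sets differed in sign, -0.21 for the one used and 0.12 for the other, and neither was called.

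Jag2, the second Jagged ligand, had 6.39, 6.33 and 6.24 on the combined arrays, 6.43, 6.42 and 6.18 on the thapsigargin arrays and 6.85, 6.72 and 6.51 on the DMSO arrays. Both treated groups lay below the DMSO arrays and overlapped each other. Their lowest value, 6.18, was not far above the array medians, where background was not checked. The fall was -0.35 ± 0.10 with thapsigargin (limma adjusted p = 0.0199) and -0.37 ± 0.10 with the combined treatment (limma adjusted p = 0.0158), and the difference between the treatments was -0.02, with a 95% interval from -0.24 to 0.21. The thapsigargin call was lost without DMSO replicate 1 (limma adjusted p = 0.0701) or 2 (0.0606) or thapsigargin replicate 3 (0.0752), with adjusted p from 0.00234 to 0.0752 over the 14 alternatives. The combined call was lost without DMSO replicate 1 (limma adjusted p = 0.0559) or 2 (0.0503) or combined replicate 3 (0.0592), with adjusted p from 0.00191 to 0.0592.

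Jag1 and Notch2 were called higher with forskolin added, and Dll1 fell most among the ligands, so the 250 bases before their annotated starts are shown, from RefSeq on GRCm38.p6, on the strand of the gene. Of the 10 genes 7 have such a window in the table used (not Hes1, Hey1 and Heyl), Dll1 with 2 starts. Capitals mark TGACG, the core of the cAMP response element, read on either strand.
Jag1 (chr2:137116521-137116770, minus strand): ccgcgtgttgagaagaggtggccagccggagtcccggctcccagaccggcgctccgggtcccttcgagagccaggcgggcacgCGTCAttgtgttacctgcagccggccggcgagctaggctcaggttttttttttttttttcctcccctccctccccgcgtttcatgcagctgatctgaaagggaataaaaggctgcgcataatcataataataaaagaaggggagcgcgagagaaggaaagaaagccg
Notch2 (chr3:98013288-98013537, plus strand): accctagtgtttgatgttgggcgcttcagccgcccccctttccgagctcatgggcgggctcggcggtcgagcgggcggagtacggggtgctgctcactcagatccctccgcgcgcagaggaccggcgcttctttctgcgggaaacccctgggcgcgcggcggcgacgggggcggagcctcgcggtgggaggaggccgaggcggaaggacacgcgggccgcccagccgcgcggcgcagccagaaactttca
Dll1 (chr17:15376933-15377182, minus strand): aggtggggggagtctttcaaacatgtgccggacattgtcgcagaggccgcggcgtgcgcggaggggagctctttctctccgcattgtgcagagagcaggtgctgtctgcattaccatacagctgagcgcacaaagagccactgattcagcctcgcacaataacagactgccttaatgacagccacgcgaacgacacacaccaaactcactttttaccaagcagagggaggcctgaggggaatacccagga
Dll1, second start (chr17:15375824-15376073, minus strand): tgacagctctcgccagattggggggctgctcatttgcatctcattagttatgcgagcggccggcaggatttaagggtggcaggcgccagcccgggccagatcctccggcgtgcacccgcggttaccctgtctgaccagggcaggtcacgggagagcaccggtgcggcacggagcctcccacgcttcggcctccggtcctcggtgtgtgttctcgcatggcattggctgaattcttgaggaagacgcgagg
In the Jag1 window the core lies on the opposite strand, from base -167 to base -163 counted from the start of the gene. Jag1, Notch3 and Nrarp have the core, and the windows of Notch1, Notch2, Jag2 and Dll1 do not; 17.8% of 32851 promoter windows of the same length hold it. The full element TGACGTCA, of which TGACG is a part, is in none of the 8 windows of these genes and in 1.55% of all windows. The RBPJ core TGGGAA is likewise in none of the 8 windows and in 21.6% of all, and the stress element TGATGCAA bound by ATF4 is in none and in 0.791% of all. A match or its absence describes only these letters in these windows.

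Around the 10 genes, 78 of 82 further Notch pathway genes listed by role were measured. Thapsigargin against DMSO raised 12 and lowered 27 of the 78, so that 50% were called, against 35.0% of all genes (18.2% higher and 16.9% lower), with a median difference of -0.11. Forskolin added to thapsigargin raised 3 and lowered 4, or 8.97%, close to the 7.87% of all genes. The combined treatment against DMSO raised 11 and lowered 24, or 44.9%, against 34.5% of all genes, with a median of -0.15.

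**Figure D3:**
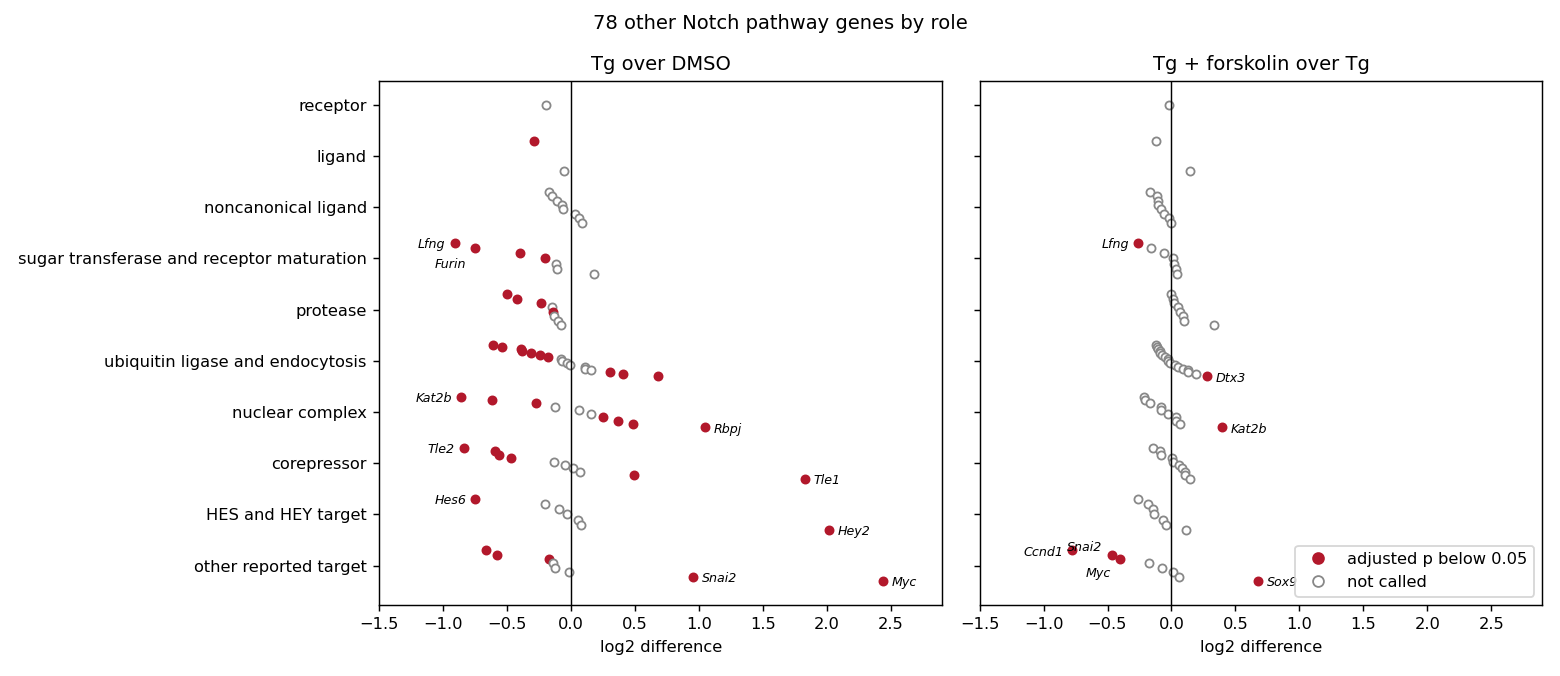
Log2 difference (horizontal axis) of 78 other Notch pathway genes, grouped by role (vertical axis), for thapsigargin (Tg) over DMSO on the left and thapsigargin with forskolin over thapsigargin on the right; each point is a gene, filled where the limma adjusted p is below 0.05. On the left the named extremes run from Lfng at -0.91 to Myc at 2.43, and on the right 7 genes are called.

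Of 7 genes of sugar transfer and receptor maturation 4 fell and 0 rose with thapsigargin, and of 8 protease genes 4 fell and 0 rose, where 16.9% of all genes were called lower and 18.2% higher. Lfng, the Fringe enzyme that extends sugars on Notch and changes which ligand it answers to, had 7.69, 7.74 and 7.58 on the combined arrays, 7.94, 7.94 and 7.90 on the thapsigargin arrays and 8.85, 8.74 and 8.93 on the DMSO arrays. All treated arrays lay below all DMSO arrays. The fall was 1.88-fold with thapsigargin (-0.91 ± 0.07, limma adjusted p = 3.32e-06) and 2.25-fold with the combined treatment (-1.17 ± 0.07, limma adjusted p = 7.14e-07). The further fall with forskolin, -0.26 ± 0.07 (limma adjusted p = 0.0424), was lost without any single array of the groups compared, with adjusted p from 0.0163 to 0.142 over 14 alternatives. Furin, which makes the maturing cut, fell by 0.75 ± 0.06 with thapsigargin, and Adam10, which makes the cut after ligand binding, by 0.42 ± 0.06 (limma adjusted p = 5.36e-06 and 0.0003). Ncstn, a subunit of gamma-secretase, fell by 0.24 ± 0.05 (limma adjusted p = 0.00364). In the comparison of the combined treatment with thapsigargin 0 of 8 protease genes were called, where 7.87% of all genes were.

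The nuclear partners moved in both directions. Rbpj, the DNA-binding partner of all Notch receptors, had 10.07, 10.11 and 10.23 on the combined arrays, 10.36, 10.19 and 10.37 on the thapsigargin arrays and 9.26, 9.22 and 9.30 on the DMSO arrays. Treated arrays were all above the DMSO arrays. The rise was 2.06-fold with thapsigargin (1.05 ± 0.07, limma adjusted p = 1.78e-06) and 1.83-fold with the combined treatment (0.87 ± 0.07, limma adjusted p = 6.75e-06). A second, dimmer probe set of Rbpj gave 0.57 ± 0.11 and 0.45 ± 0.11 (limma adjusted p = 0.00332 and 0.0121). Of 10 genes of the nuclear complex 4 rose and 3 fell with thapsigargin, where 18.2% of all genes were called higher and 16.9% lower. Kat2b, an acetyltransferase that Notch recruits, fell by 0.86 ± 0.07 with thapsigargin (limma adjusted p = 9.03e-06) and was 0.39 ± 0.07 higher with forskolin added (limma adjusted p = 0.00889). Maml1, a Mastermind coactivator, differed by 0.16 ± 0.06 with thapsigargin (limma adjusted p = 0.0878). It passed the threshold in 4 of 14 alternatives, with adjusted p from 0.0322 to 0.575. Its relative Maml2 fell by 0.62 ± 0.07 with thapsigargin (limma adjusted p = 5.05e-05). With the combined treatment against DMSO Maml2 fell by 0.84 ± 0.07 (limma adjusted p = 7.48e-06).

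Of 10 corepressor genes 2 rose and 4 fell with thapsigargin, where 18.2% of all genes were called higher and 16.9% lower. Of the 4 Tle genes, which encode Groucho-type corepressors that HES proteins recruit, 1 rose and 3 fell. Tle1 rose by 1.83 ± 0.07 with thapsigargin (limma adjusted p = 9.2e-08) and by 1.73 ± 0.07 with the combined treatment against DMSO (limma adjusted p = 1.35e-07), and its relative Tle2 fell by 0.84 ± 0.09 and by 0.73 ± 0.09 (limma adjusted p = 5.11e-05 and 0.000142). Tle3 fell by 0.56 ± 0.07 and Tle4 by 0.47 ± 0.09 with thapsigargin (limma adjusted p = 0.000136 and 0.00335), both named after their values were seen. The mean over both Tle1 probe sets rose by 0.90 with thapsigargin, since the other probe set, with a mean of 3.48 below the lower quartiles, gave -0.03 ± 0.09. Of 17 genes of ubiquitin transfer and endocytosis 3 rose and 7 fell with thapsigargin, set against the same shares of all genes. Mib2, a ligase that acts on ligands, rose by 0.68 ± 0.05 with thapsigargin (limma adjusted p = 6.42e-06). With the combined treatment against DMSO it rose by 0.61 ± 0.05 (limma adjusted p = 1.52e-05). Dtx3, of the Deltex family, was 0.27 ± 0.05 higher with forskolin added (limma adjusted p = 0.0129), a call lost without thapsigargin replicate 3 (0.0568) and without combined replicate 1 (0.0503) or 2 (0.0577), with adjusted p from 0.00146 to 0.0577 over 14 alternatives.

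Hes1 and its relative Hey2 moved in opposite directions. Hey2, a HEY repressor best known from heart and vessels, had 10.11, 10.20 and 10.19 on the combined arrays, 10.38, 10.32 and 10.23 on the thapsigargin arrays and 8.43, 8.17 and 8.30 on the DMSO arrays. Treated and DMSO arrays were far apart, and the combined arrays lay just under the thapsigargin arrays. Thapsigargin raised Hey2 4.03-fold (2.01 ± 0.07, limma adjusted p = 5.49e-08) and the combined treatment 3.65-fold over DMSO (1.87 ± 0.07, limma adjusted p = 9.11e-08), in all 14 alternatives. The difference that forskolin added was -0.14 ± 0.07 (limma adjusted p = 0.356, 95% interval -0.31 to 0.02).

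Hes6, a HES protein that opposes Hes1 in other tissues, had 7.16, 7.25 and 7.20 on the combined arrays, 7.03, 7.11 and 7.13 on the thapsigargin arrays and 7.86, 7.86 and 7.80 on the DMSO arrays. Both treated groups were below DMSO, by -0.75 ± 0.05 for thapsigargin (limma adjusted p = 3.11e-06) and -0.64 ± 0.05 for the combined treatment (limma adjusted p = 1.02e-05). Hes5, a target of Notch in neural cells, differed by -0.09 ± 0.10 with thapsigargin (limma adjusted p = 0.536). Of the 7 HES and HEY genes outside the 10, 1 rose and 1 fell with thapsigargin in limma, where 35.0% of all genes were called. With forskolin added 0 of the 7 were called, where 7.87% of all genes were. At an unadjusted p under 0.05 there was 1 of the 7 in that comparison, Hes2 (-0.26 ± 0.08, limma adjusted p = 0.0783), named after its value was seen.

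**Figure D4:**
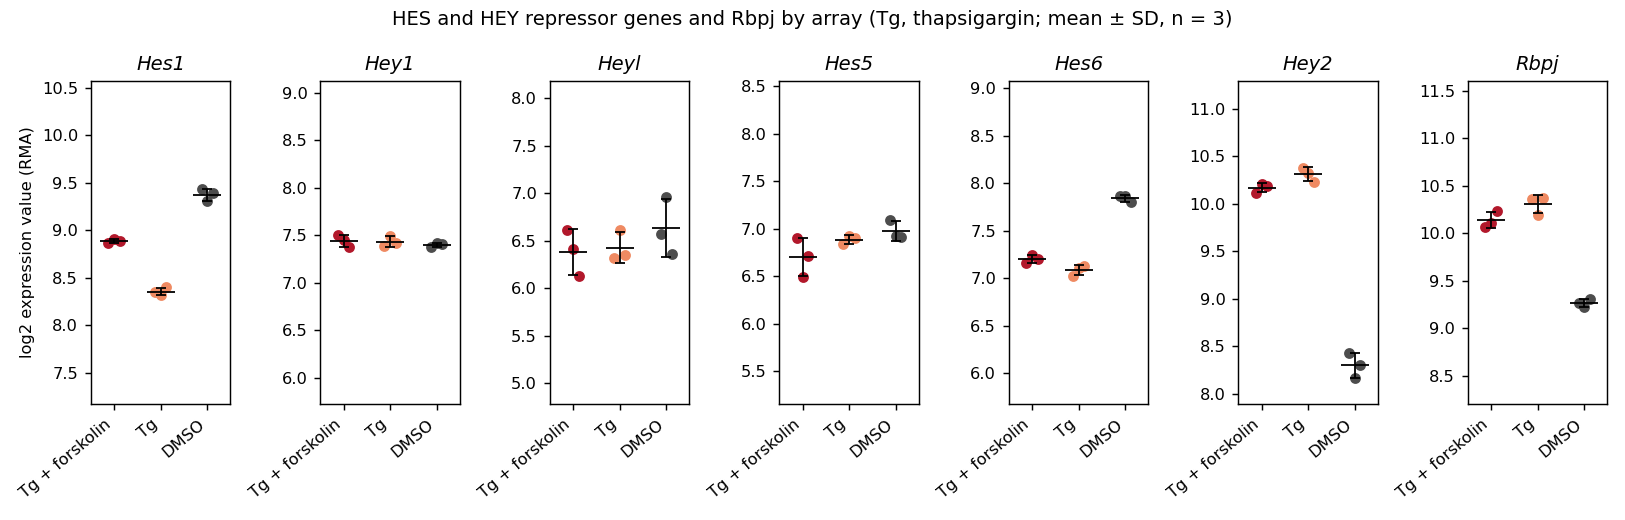
Log2 expression value (vertical axis, each panel spanning an equal range) of 6 HES and HEY repressor genes and of Rbpj on each array, by treatment (horizontal axis); points are arrays, bars the mean and SD of 3. Hes1 and Hes6 are lower and Hey2 and Rbpj higher on the treated arrays than on the DMSO arrays. In Hes1, Hes6 and Hey2 the combined and thapsigargin arrays do not overlap, a difference called only for Hes1.

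Genes reported as Notch targets in other cells, most of which answer to many signals, were also mixed. Of 8 such genes 2 rose and 3 fell with thapsigargin, where 35.0% of all genes were called, and 1 rose and 3 fell with forskolin added, where 7.87% were. Myc, a growth-promoting transcription factor, rose 5.41-fold with thapsigargin (2.43 ± 0.08, limma adjusted p = 3.69e-08) and was lower with forskolin added (-0.41 ± 0.08, limma adjusted p = 0.0179), a call lost without any single array of the groups compared other than thapsigargin replicate 3 (adjusted p from 0.00193 to 0.0773 over 14 alternatives). Its value was 11.22 on each of the 3 combined arrays. Snai2, a repressor of epithelial genes, rose by 0.95 ± 0.08 with thapsigargin (limma adjusted p = 1.17e-05) and fell by 0.47 ± 0.08 with forskolin added (limma adjusted p = 0.00755). Sox9, a factor of kidney repair, had 7.94, 8.22 and 8.04 on the combined arrays, 7.31, 7.39 and 7.47 on the thapsigargin arrays and 8.16, 7.83 and 7.92 on the DMSO arrays. It fell by 0.58 ± 0.10 with thapsigargin (limma adjusted p = 0.00125) and rose by 0.68 ± 0.10 with forskolin added (limma adjusted p = 0.00308), and the combined and DMSO arrays overlapped. The cyclin gene Ccnd1 fell in each step, by 0.66 ± 0.06 with thapsigargin and by a further 0.78 ± 0.06 with forskolin added (limma adjusted p = 1.59e-05 and 6.32e-05).

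The genes whose pattern over the 9 arrays lay closest to the 3 members with the widest group means were sought among 12186 named genes above the median level, by the root mean square difference of log2 values after centring each gene. Closest to Hes1 were Rmnd5b (0.05), F2r, which encodes the thrombin receptor (0.06), and Cd24a (0.06). F2r differed by -1.05 with thapsigargin and by 0.56 with forskolin added. Closest to Dll1 were Rnf144b (0.07), Tspan9 (0.09) and Col6a1 (0.09), and closest to Notch2 were Ccpg1os (0.01), Afap1 (0.03) and the talin gene Tln2 (0.04). Ccpg1os differed from DMSO by -0.61 with thapsigargin and from thapsigargin by 0.24 with forskolin added, near the -0.64 and 0.27 of Notch2. Such likeness follows from how these genes were chosen and is no separate result.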

How the data were processed

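Single-colour arrays of 9 podocyte RNA samples were analysed. The authors deposited log2 values, 1 for each probe set on each array. Per the submitters' processing notes, affy and RMA made them; tool versions and the build were not given in the sources used. RMA makes the arrays' distributions alike, so changes are relative to the bulk of genes, and background of single probe sets was not checked. Depth does not apply; the number of arrays limits the precision.

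Of 41345 probe sets 23521 carry 1 gene symbol, 1814 several and 16010 none; the last 2 kinds were left out. Entrez IDs were looked up among RefSeq genes to update symbols, and 23328 matched. Groups were taken from sample titles. Group means were fitted over all 9 arrays with limma 3.58.1 in R 4.3.3 (6 residual degrees of freedom). The 3 contrasts were tested on both sides, and a gene was called where the p adjusted by Benjamini-Hochberg over 22180 genes was below 0.05. Values of second probe sets came from a separate fit, with p adjusted over the 23521 probe sets with 1 symbol. The procedure was also run on simulated data with independent normal noise. Far fewer genes were changed there than were called here, so no result given here rests on that run. Figures were drawn with matplotlib 3.10.9.

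The 10 members, the lists and the tests were chosen with earlier results of these data known. The genes named are the members, up to 5 called pathway genes per direction and comparison with the largest change, a fixed set (Rbpj, Adam10, Ncstn, Maml1, Lfng and Hes5) and the closest patterns. Alternatives were a fit of the 6 arrays compared, an intensity trend with robust prior, a filter on dim genes, array weights, quantile normalization once more, centring each array on its median, averaged probe sets, the other Dll1 probe set, a replicate block, and leaving out single arrays.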

Additional observations from a re-analysis of the deposited data

How the results depend on the processing

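The calls of Hes1 in the 3 comparisons, of Notch2 and Dll1 against DMSO and of Jag1 with forskolin added to thapsigargin held in every alternative run. The count of members called lower with thapsigargin, 5, was between 3 and 5 when single arrays were left out. The count called higher with the combined treatment against DMSO, 1 (Jag1), was 0 in the fit of 6 arrays, with array weights, after centring on array medians and after another quantile normalization, and between 0 and 1 when single arrays were left out. Among the 78 other pathway genes, 4 were called lower with forskolin added to thapsigargin, against 7 when dim genes were left out and between 2 and 3 when single arrays were left out. The share of all genes called was not counted in the alternatives, the replicate block included. A shift in these counts is therefore not told apart from a shift over all genes. No called difference of a member or named gene changed sign; 46 single calls were lost and 14 gained, and the cause was not tested.

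Arrays of different groups with the same replicate number did not deviate together throughout, so the numbers were not taken to pair the samples. Their correlations ran from -0.07 to 0.25, and those of arrays with different numbers from -0.30 to 0.25. Number 3 was positive in each pair of groups (0.21, 0.23 and 0.18), while numbers 1 and 2 were each of mixed sign. A fit with a replicate block gave the members 5 lower calls with thapsigargin, 3 higher with forskolin added, and 4 lower and 1 higher with the combined treatment against DMSO. Among the named genes the block ended the call of Lfng with forskolin added (-0.26, limma adjusted p = 0.0858).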
